A study of Homo sapiens with 7 samples.

Results

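A set of 9 human genes of transcription elongation and of the release of paused RNA polymerase II was described, SUPT4H1, SUPT5H, SUPT6H, CDK9, CCNT1, CCNT2, HEXIM1, AFF4 and ELL. The 9 genes were selected by name from the 26175 genes of the expression table, and not by their values. For each gene, its expression, the transcription start site (TSS) called inside its locus widened by 1000 nt, and the antisense TSSs called with that gene TSS were taken. An own gene TSS, on the strand of the gene and nearest to a start of that gene or to no annotated start at all, was found for 8 of the 9 genes, out of 10391 gene TSSs called in all.

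All samples came from 1 growth condition, so there was no treated and no control group. The labels name the cells T-47D, a line of luminal breast cancer, and the study as T47D/A1-2. In these cells, made from T47D, extra glucocorticoid receptor of rat origin is produced, and the promoter of mouse mammary tumor virus drives luciferase from the genome. Cells were grown in 10% fetal bovine serum and were then held in 5% serum stripped with charcoal and dextran for at least 24 hours, which lowers its steroid hormones. TSS calls came from Start-seq, which sequences the 5' ends of short, capped, nuclear RNAs, and expression came from RNA-seq, with 1 FPKM (a count of sequenced fragments scaled by transcript length and by library size) value per gene over 3 merged replicates. Because the deposited values hold 1 FPKM column and calls from 1 Start-seq library, no value below has an error between replicates, no difference could be tested, and the depth behind each value is unknown. All values are therefore descriptions, set beside the same quantity over all genes or all gene TSSs. The luminal markers were expressed, with all 9 of 9 at an FPKM of at least 1, from ESR1 at 44.1 FPKM to KRT8 at 1142 FPKM. None of the 3 leukocyte, 2 endothelial or 5 basal or mesenchymal markers reached an FPKM of 1, whereas 1 of 3 fibroblast markers did, COL1A1 at 8.82 FPKM.

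After initiation at most human genes, RNA polymerase II stops a short distance downstream of the TSS, held there by DSIF and by the negative elongation factor NELF. DSIF is the dimer of SPT4 (encoded by SUPT4H1) and SPT5 (SUPT5H). The pause ends when P-TEFb, the kinase CDK9 bound to cyclin T1 (CCNT1) or cyclin T2 (CCNT2), phosphorylates SPT5, NELF and the polymerase, after which SPT5 and the histone chaperone SPT6 (SUPT6H) travel with the elongating enzyme. Much of the P-TEFb of a cell is kept inactive by HEXIM1 bound to the noncoding 7SK RNA, and active P-TEFb can be brought to genes by the super elongation complex, of which AFF4 is the scaffold and ELL a subunit that raises the elongation rate. At many mammalian promoters polymerase also initiates on the opposite strand, upstream of the gene TSS (an upstream antisense TSS, uaTSS) or downstream of it (a downstream antisense TSS, daTSS). The authors searched for uaTSSs up to 1000 nt upstream and for daTSSs up to 2000 nt downstream, with a threshold of 5 reads.

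The called start sites are shown first, because each call is a single nucleotide and its surroundings can be read directly. Each sequence runs 5' to 3' in the direction of transcription, from 20 nt upstream of the call through the first 10 transcribed nt, and the capitals mark the last base before the call (-1) and the called base (+1). Coordinates are of hg19 (GRCh37).
SUPT5H gene TSS, chr19:39936202-39936231, plus strand: cgagaggacccgtcagcccCAgtcaggcgt
SUPT6H gene TSS, chr17:26989272-26989301, plus strand: ccgtactatcttttcccagTCtcggttcga
CDK9 gene TSS, chr9:130548304-130548333, plus strand: gaagtggccgtggaggcggAAgtggcgcgg
CCNT1 gene TSS, chr12:49110449-49110478, minus strand: tgccttctggttgaagcacTAtggagggag
CCNT2 gene TSS, chr2:135676405-135676434, plus strand: cgggcggaggaggaagtgtCAtggcgtcgg
HEXIM1 gene TSS, chr17:43224714-43224743, plus strand: atgatttcaactcattaatCAttccgaact
AFF4 gene TSS, chr5:132299606-132299635, minus strand: acctcactagcgggctacgCGcaggagggc
ELL gene TSS, chr19:18632867-18632896, minus strand: gaagggggcgcgggggagaGAtggtcgcaa
The pyrimidine-purine step over -1 and +1, the dinucleotide at which RNA polymerase II most often initiates, stood at 5 of the 8 calls, against 66.1% of all gene TSSs. SUPT5H, CCNT2 and HEXIM1 had CA there, CCNT1 had TA and AFF4 had CG. SUPT6H, CDK9 and ELL had TC, AA and GA.

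All 9 genes were expressed, and their levels spread over 24.4-fold (highest to lowest FPKM). Each of the 9 lay above the median over all genes of the table, 0.528 FPKM, and the median of the 9 was 26.6 FPKM. An FPKM of at least 1 was reached by 9 of 9, against 46.9% of all genes. On the scale of log2(FPKM + 0.1), the median level was 4.74 for the 9 genes and -0.67 for all genes. Genes that had an own gene TSS are a closer reference, since initiation was detected at them, and their median was 16.5 FPKM. Against these, 6 of the 9 lay above the median, while AFF4, ELL and CCNT2 lay below it.

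**Figure D1:**
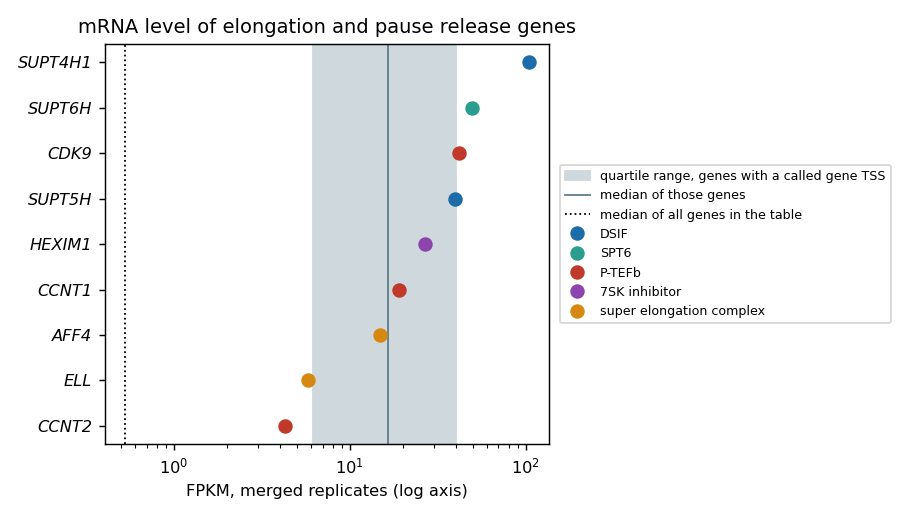
FPKM over merged replicates on a log axis for the 9 genes, ordered by level and colored by role, beside the median of all genes and of genes with an own gene TSS. SUPT4H1 sits highest at 104 FPKM and CCNT2 lowest at 4.26 FPKM.

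The genes of the DSIF dimer stood at different levels. SUPT4H1 had 104 FPKM, at percentile 96.7 of all genes and the highest level of the 9. SUPT5H had 39.6 FPKM, at percentile 89.3. Per length, SUPT4H1 was thus 2.63-fold higher than SUPT5H, but the locus of SUPT4H1 in the table is shared with 5 other genes. SUPT6H, whose product SPT6 binds histones and the elongating polymerase, had 49.5 FPKM, at percentile 91.6, and exceeded SUPT5H by 1.25-fold.

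Within P-TEFb, the kinase transcript was above its cyclin transcripts. CDK9 had 41.9 FPKM (percentile 89.9), CCNT1 had 19.1 FPKM (percentile 80.4) and CCNT2 had 4.26 FPKM (percentile 62.9). Cyclin T1 and cyclin T2 are alternative partners of CDK9, and CCNT1 was 4.47-fold higher than CCNT2. CDK9 was 1.80-fold higher than CCNT1 and CCNT2 added together, which came to 23.3 FPKM.

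HEXIM1, the inhibitor of P-TEFb, had 26.6 FPKM (percentile 84.7), so that CDK9 was 1.58-fold higher per length. Its paralog HEXIM2, which also binds 7SK RNA, had 9.85 FPKM, and HEXIM1 was 2.70-fold higher. Of the super elongation complex, AFF4 had 14.8 FPKM (percentile 77.0) and ELL had 5.76 FPKM (percentile 65.6), a 2.58-fold difference. AFF4 was 2.73-fold higher than its paralog AFF1, at 5.45 FPKM, and ELL was 1.21-fold higher than ELL2, at 4.76 FPKM. ELL3, the other ELL paralog, was listed at 54.2 FPKM, 9.40-fold higher than ELL. In the table, however, the locus of ELL3 is shared with 6 other genes and that of ELL2 with 3.

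In descending order the levels ran SUPT4H1, SUPT6H, CDK9, SUPT5H, HEXIM1, CCNT1, AFF4, ELL and CCNT2. The widest steps between neighbours were 2.58-fold from AFF4 to ELL and 2.10-fold from SUPT4H1 to SUPT6H. CDK9 and SUPT5H were the closest neighbours, at 1.06-fold, followed by SUPT6H and CDK9 at 1.18-fold. With merged replicates it cannot be said which neighbours in this order differ beyond their spread.

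Each of the 9 loci, widened by 1000 nt, held at least 1 gene TSS row, as did 49.9% of the genes of the table. These were 10 rows, of which 8 were own gene TSSs and 2 belonged to neighbouring genes, SDF2 beside SUPT6H and RNF43 in the locus of SUPT4H1. An own gene TSS was found for 37.1% of all genes and for 74.1% of genes with an FPKM of at least 1, beside 8 of the 9 genes here.

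Antisense calls differed between the 8 genes. A uaTSS accompanied 5 of the 8 gene TSSs (SUPT5H, SUPT6H, CDK9, CCNT1 and AFF4), against 53.1% of all gene TSSs. A daTSS accompanied 1 of the 8 (CDK9), against 28.4%. CDK9 was therefore the only one of the 8 with both, a class that held 17.5% of all gene TSSs. The other 4 genes with a uaTSS had no daTSS, as had 35.6% of all gene TSSs. CCNT2, HEXIM1 and ELL, 3 of the 8, had neither antisense call, as had 35.9% of all gene TSSs. These counts rest on 8 gene TSSs of 1 library and were not tested.

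**Figure D2:**
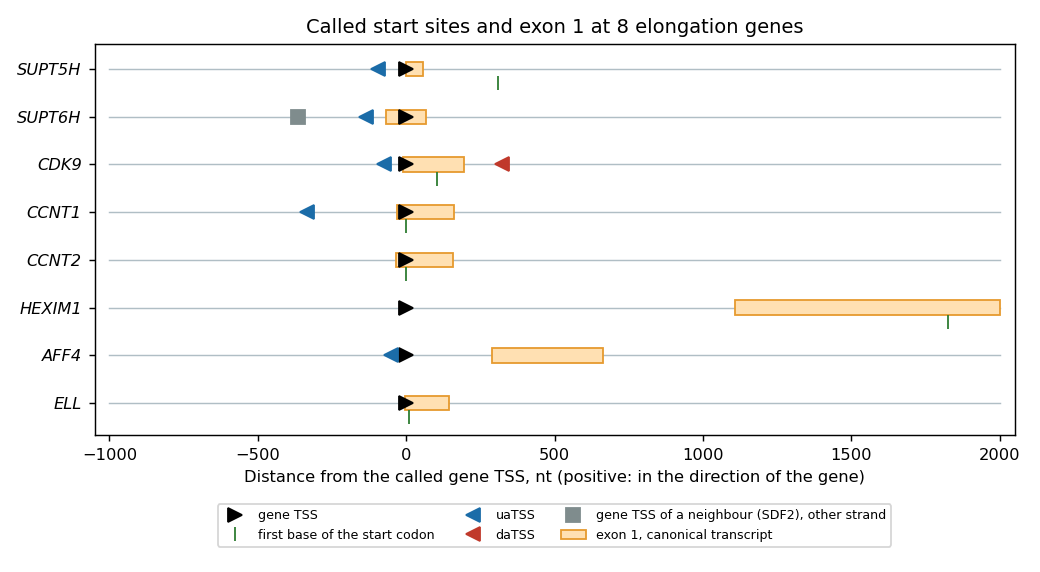
Positions in nt relative to the called gene TSS (0) of the uaTSS, the daTSS, the annotated first exon and the start codon of the 8 genes with an own gene TSS, with each gene drawn 5' to 3' from left to right. A uaTSS stands upstream in 5 genes and CDK9 alone has a daTSS, 322 nt downstream, while the HEXIM1 exon runs on past the right edge and the start codons of SUPT6H and AFF4 lie beyond it.

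The distances of the 5 uaTSSs from their gene TSSs ranged from 51 nt to 335 nt, with a median of 95 nt, beside a median of 200 nt and quartiles of 127 nt and 329.5 nt over all 5519 uaTSSs. The uaTSS of AFF4 was nearest at 51 nt (percentile 4.27 of all uaTSS distances), followed by CDK9 at 75 nt (percentile 9.30) and SUPT5H at 95 nt (percentile 14.2). These 3 lay within 100 nt, as did 15.9% of all uaTSSs. The uaTSS of SUPT6H lay 137 nt upstream (percentile 28.9) and that of CCNT1 335 nt upstream (percentile 75.7). The antisense starts are shown in the same way as the gene TSSs, each read along its own strand, opposite to the gene, with -1 and +1 of the antisense call in capitals.
SUPT5H uaTSS, chr19:39936118-39936147, minus strand: cgacgcacttccaggtcgcCAtcttgagag
SUPT6H uaTSS, chr17:26989146-26989175, minus strand: ttcttgttctctctcccgcTCtcggaagct
CDK9 uaTSS, chr9:130548240-130548269, minus strand: gccgcccaccgccaggcccCCtgggacttg
CCNT1 uaTSS, chr12:49110773-49110802, plus strand: tatcttcccgcgagaaccgGAttgagcgtt
AFF4 uaTSS, chr5:132299646-132299675, plus strand: ggggccgggccgaaccggaTAtgccggttc
CDK9 daTSS, chr9:130548637-130548666, minus strand: ggggcggggtgcggcgcggCCtagagacca

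SUPT5H lies on the plus strand of chromosome 19, and its gene TSS was called at 39936222, exactly on the annotated start of its canonical transcript. The annotated first exon ends 55 nt downstream of the call, and the start codon lies 309 nt downstream on the genome, past the start of the second exon at 222 nt. Its uaTSS, on the minus strand at 39936127, falls in an exon of another annotated SUPT5H transcript and outside the canonical one. The nearest called gene TSS of the other strand belonged to RPS16, 9634 nt upstream.

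SUPT6H lies on the plus strand of chromosome 17 and was the only one of the 8 with a called gene TSS of the other strand within 1000 nt. Its gene TSS was called at 26989292, which is 69 nt downstream of the annotated start at 26989223. The gene TSS of SDF2, on the minus strand at 26988929, lay 363 nt upstream. SDF2 had 56.7 FPKM, beside 49.5 FPKM for SUPT6H, and no antisense call of its own. A called gene TSS of the other strand within 1000 nt upstream was found at 11.5% of all gene TSSs. The uaTSS of SUPT6H at 26989155 lies between the start sites of the pair, within the annotated bounds of SDF2 and on its strand, so that an antisense transcript of SUPT6H and a longer transcript of SDF2 cannot be told apart at this position.

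CDK9, on the plus strand of chromosome 9, had its gene TSS at 130548324, 11 nt downstream of the annotated start, with its start codon 104 nt further on. It had an antisense call on each side. The uaTSS was called at 130548249 and the daTSS at 130548646, both on the minus strand. As in SUPT5H, the uaTSS falls in an exon of another annotated transcript of the gene and outside the canonical one. The daTSS lay 322 nt downstream of the gene TSS, at percentile 25.8 of all 2956 daTSS distances, whose median was 507 nt and whose quartiles were 312.75 nt and 804.25 nt. Exon 1 of CDK9 ends 195 nt and exon 2 begins 656 nt downstream of the gene TSS, so that the daTSS lies in intron 1.

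CDK9 had the highest GC content of the 8 in the first 100 nt downstream of the gene TSS, 83% (percentile 97.7 of all gene TSSs), and in the 1000 nt upstream, 79.3% (percentile 99.7). It was also highest in the first 50 nt downstream, at 84% (percentile 98.6), but not in every window. Over 500 nt downstream AFF4 (73.8%) and ELL (72.4%) were above CDK9 (71.2%), and in the 100 nt upstream ELL (78%) was above CDK9 (77%). The stretch between the uaTSS and the gene TSS, and the 100 nt upstream of the daTSS, are shown for their GC boxes (GGGCGG, or CCGCCC on the other strand, the element bound by SP1) and for the core of the site bound by ETS factors (CCGGAA), which are in capitals.
CDK9 from the uaTSS towards the gene TSS, chr9:130548249-130548312, plus strand: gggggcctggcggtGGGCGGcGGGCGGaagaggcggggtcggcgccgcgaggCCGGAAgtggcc
CDK9 upstream of the daTSS, chr9:130548647-130548746, minus strand: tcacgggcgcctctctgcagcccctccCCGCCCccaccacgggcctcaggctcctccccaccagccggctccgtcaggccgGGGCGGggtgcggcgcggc
Read from the gene TSS, the GC boxes began 61 nt and 54 nt upstream and the ETS core 23 nt upstream.

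CCNT1 and CCNT2 were both called on an annotated start codon. CCNT1 was called on the minus strand of chromosome 12 at 49110458, 32 nt downstream of its canonical start at 49110490. CCNT2 was called on the plus strand of chromosome 2 at 135676425, 33 nt downstream of its canonical start at 135676392. Other annotated transcripts start nearer, both classed as targets of nonsense-mediated decay: 1 of CCNT1 starts on the called base itself, and 1 of CCNT2 starts 8 nt upstream of the call. In both genes, the called +1 was the first base of an annotated start codon, which can be read in the sequences above as the A of ATG. Only 75 of 10391 gene TSSs, 0.722%, were called on the first base of an annotated start codon, and ATG stood at +1 to +3 in 2.21%. The coincidence was looked for after these positions were seen, so its background is a description only. ELL, called on the minus strand of chromosome 19 at 18632876 and 4 nt downstream of its canonical start, also had ATG at +1 to +3, but its annotated start codon lay 11 nt downstream of the call. A start codon 0 to 20 nt downstream was found at 6.01% of all gene TSSs. The calls were made on 5' ends in 1 library, and whether a second library would place them at the same base was not tested.

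The cyclins differed in their antisense calls. CCNT1, the more highly expressed, had a uaTSS at 49110793, just upstream of the outermost annotated start of the gene, at 49110781. CCNT2 had neither antisense call. The first 100 nt downstream of the CCNT1 gene TSS had the lowest GC content of the 8, 49% (percentile 4.12), against 63% (percentile 33.0) for CCNT2. In the 100 nt upstream, CCNT2 had GC boxes starting 85 nt, 42 nt and 19 nt before the call, and CCNT1 had none.

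HEXIM1, a gene of 1 exon on the plus strand of chromosome 17, was called far from its start in the present annotation. Its gene TSS was called at 43224734, 51 nt downstream of the edge of its locus in the table, which starts at 43224683. The present annotation starts the gene at 43225842, in GENCODE and in RefSeq, so that the call lay 1108 nt upstream of it. Of all gene TSSs, 25, or 0.241%, had no start of the present annotation within 1000 nt on their strand. The authors searched 1000 nt to each side of starts in an earlier RefSeq release, which was not compared here. The annotated start is 1159 nt downstream of the locus edge, 159 nt beyond a window of 1000 nt after that edge, and whether the search window bears on the absence of a call there was not tested. No uaTSS or daTSS was called with it.

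The sequence around the HEXIM1 call had less GC and fewer CpGs than that around its annotated start. GC content in the 100 nt downstream of the call was 54% (percentile 9.72) and the observed to expected ratio of CpG within 250 nt on each side was 0.577 (percentile 10.5), the lowest ratio of the 8. At the annotated start, the same measures were 63% and 0.948 (percentile 81.5). The 80 nt before the annotated start, with a GC box and a TATA box (TATAA) in capitals, are shown because the called TSS has neither element within 100 nt upstream.
HEXIM1 before the annotated start, chr17:43225762-43225841, plus strand: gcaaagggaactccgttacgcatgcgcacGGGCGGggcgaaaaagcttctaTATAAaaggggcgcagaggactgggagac
The TATAA began 29 nt and the GC box 51 nt before the annotated start. Among 35116 RefSeq promoters (GRCh38), TATAA began 21 to 40 nt before the start in 3.89%, and a GC box on either strand from 100 nt before to 50 nt after the start in 35.0%.

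AFF4, on the minus strand of chromosome 5, was called at 132299615, 289 nt upstream of its canonical start at 132299326. A distance of 250 nt or more from every annotated start, or no such start within 1000 nt, was found for 10.8% of gene TSSs. The start codon of AFF4 lies 26734 nt downstream, in the second of its 21 exons. Its uaTSS, at 132299666, lay 51 nt upstream of the call and inside AFF4-DT, a divergent long noncoding RNA gene. The 60 nt upstream of the AFF4 gene TSS are shown because the uaTSS falls inside them, and the capitals mark a GC box on the opposite strand, 32 nt upstream of the call.
AFF4 upstream of the gene TSS, chr5:132299616-132299675, minus strand: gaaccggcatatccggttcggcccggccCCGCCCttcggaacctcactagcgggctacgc
Measured from the annotated start in place of the call, the uaTSS of AFF4 would lie 340 nt upstream.

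SUPT4H1 was the exception among the 9, with the highest expression and no own gene TSS. In the table its locus runs from 56378587 to 56494943 on chromosome 17 and is shared with 5 other genes, BZRAP1, BZRAP1-AS1, MIR142, MIR4736 and RNF43, whereas the annotated gene spans 7.92 kb. Sharing a locus with another gene was found for 33.9% of the genes of the table. The row in this locus was the gene TSS of RNF43, at 56494892 on the minus strand, 65.3 kb upstream of the canonical SUPT4H1 start at 56429562. RNF43 had 9.53 FPKM and no antisense call. Within 2000 nt of the SUPT4H1 start 0 antisense TSSs were called, and the nearest gene TSS of the other strand, that of DYNLL2, lay 269 kb away.

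An own gene TSS was found for 815 of 920 genes with an FPKM of at least 100, 88.6%, and SUPT4H1 was among the others. No gene TSS was called within 1000 nt of an annotated start of SUPT4H1 either, a lookup that does not use the shared locus. Why SUPT4H1 had no call was not tested. Part of the annotated SUPT4H1 promoter is shown, from 56 nt to 27 nt before its start, with both ETS cores in capitals.
SUPT4H1 before the annotated start, chr17:56429589-56429618, minus strand: acaCCGGAAgaggaagtctaagcgCCGGAA
The ETS cores began 53 nt and 32 nt before the start. Outside the stretch shown, GC boxes began 77 nt and, on the opposite strand, 62 nt before the start. A GC box on either strand in the window given next was found at 35.0% of the RefSeq promoters. Of the RefSeq promoters, 11.8% had CCGGAA on either strand from 100 nt before to 50 nt after the start, and 2.50% had 2 or more.

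GC content in the 100 nt downstream of the 8 gene TSSs ranged from 49% to 83%, with a median of 63%, beside a median of 67% over all gene TSSs. CDK9 and AFF4 (72%, percentile 68.5) lay above that median. SUPT5H was at it with 67%, and SUPT6H (60%), CCNT2 (63%), ELL (63%), HEXIM1 (54%) and CCNT1 (49%) lay below it. The CpG ratio within 250 nt on each side had a median of 0.870 for the 8 and 0.832 for all gene TSSs, and 6 of the 8 lay above the latter. CCNT2 at 1.06 and ELL at 1.02 had the highest ratios, and AFF4 at 0.729 and HEXIM1 at 0.577 the lowest.

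**Figure D3:**
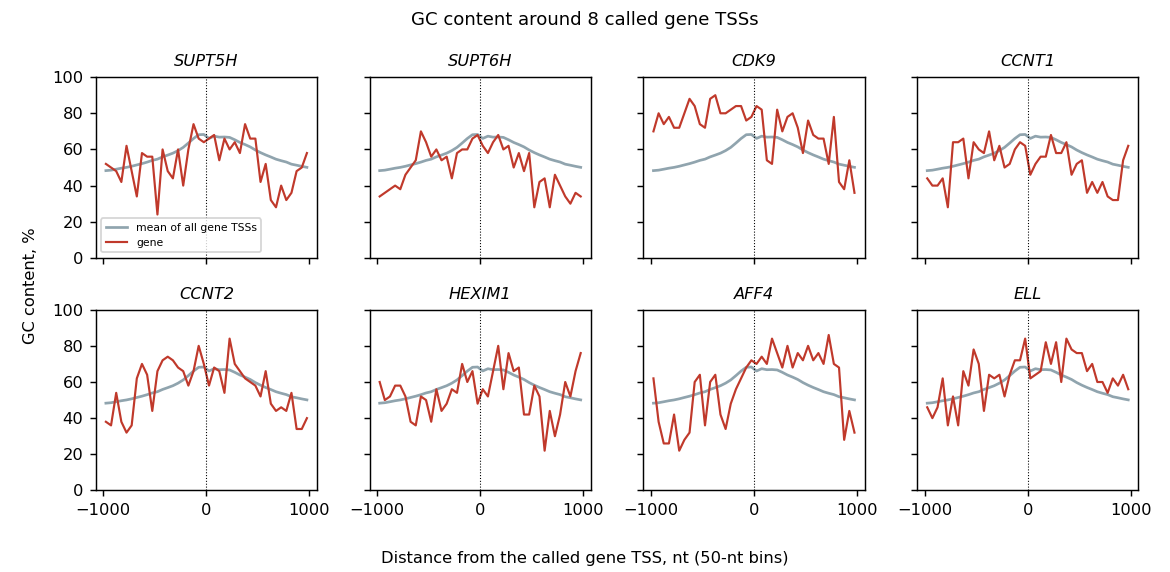
GC content in percent in 50-nt bins by position relative to the called gene TSS, for each of the 8 genes and for the mean of all gene TSSs. CDK9 runs above the mean across the upstream side, where its GC content over 1000 nt was 79.3%.

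In all, 8 sequence elements were searched from 100 nt upstream to 50 nt downstream of the 8 calls, on both strands. They were the GC box GGGCGG, the CCAAT box, the TATA box TATAA, the ETS core CCGGAA, the E-box CACGTG, the cyclic AMP response element TGACGTCA, the YY1 element AAGATGGCG and the NRF1 element. The GC box was found at 4 of the 8 gene TSSs (CDK9, CCNT2, AFF4 and ELL), against 54.8% of all, and in the 50 nt upstream at 2 (CCNT2 and AFF4), against 27.4%. Within 100 nt upstream it was found at 4, against 50.2%. The ETS core was found at 3 (SUPT5H 62 nt, SUPT6H 87 nt and CDK9 23 nt upstream), against 21.6% of all gene TSSs. The YY1 element was found at 2, against 3.39%. In SUPT5H it began 99 nt upstream, and in ELL at position +9, where it overlaps the start codon. The CCAAT box was found at 0 of the 8 (21.1% of all gene TSSs), as were the TATA box (4.15%), the E-box (5.54%), the cyclic AMP response element (1.96%) and the NRF1 element (1.47%). A TATA box starting 21 to 40 nt upstream, its usual place, was found at 0 of the 8 and at 2.48% of all gene TSSs. None of the searched elements was shared by all 8. SUPT5H, SUPT6H and CDK9, which had the ETS core, each had a uaTSS, but so had AFF4 and CCNT1 without an ETS core. This overlap was seen after the positions were known and was not tested. A match describes letters and not a bound factor.

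A wider list of 32 elongation genes was taken for context, and all 32 had an FPKM of at least 1, with a median of 28.0 FPKM beside 26.6 FPKM for the 9. The lowest was MLLT3, a super elongation complex subunit, at 3.11 FPKM, and the highest ELOB, encoding elongin B, at 247 FPKM. A gene TSS, in the locus or else by an annotated start, was found for 27 of the 32, beside the 74.1% with an own gene TSS among all genes with an FPKM of at least 1. Of these 27 genes, 17 had a uaTSS (53.1% of all gene TSSs), 11 had a daTSS (28.4%) and 8 had both (17.5%). The counts by complex that follow are small, are to be read against these same shares, and were not tested.

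NELF, which holds the pause with DSIF, had a gene TSS and a uaTSS (53.1% of all gene TSSs) at 4 of 4 genes. Their levels ran from NELFA at 28.0 FPKM to NELFE at 94.6 FPKM, and NELFCD had the group's daTSS, 745 nt downstream. The locus of NELFE is listed on chr6_ssto_hap7, an alternate haplotype of chromosome 6, and is shared with 2 other genes. That of NELFA is shared with 1. The other 7SK particle genes, HEXIM2 (9.85 FPKM), LARP7 (23.8 FPKM) and MEPCE (42.2 FPKM), had a gene TSS in 3 of 3 and a uaTSS in 0 of 3 (53.1% of all gene TSSs). MEPCE had a daTSS 1534 nt downstream (28.4% of all gene TSSs had one), and HEXIM2 and LARP7, like HEXIM1, had neither antisense call. The locus of LARP7 is shared with 6 other genes and that of MEPCE with 1. Of 7 further super elongation complex genes, 4 had a gene TSS, beside 74.1% of genes with an FPKM of at least 1. Of these 4, 2 had a uaTSS (53.1% of all gene TSSs) and 1 a daTSS (28.4%). The levels of the 7 ran from MLLT3, whose locus is shared with 2 other genes, to ELL3, whose locus is shared with 6. The 6 genes of the PAF1 complex, which travels with elongating polymerase, ran from CDC73 at 20.5 FPKM to LEO1 at 57.0 FPKM. They had 5 gene TSSs, of which 4 had a uaTSS (53.1% of all gene TSSs) and 3 a daTSS (28.4%). The locus of CDC73 is shared with 2 other genes.

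Among histone chaperones and partners of SPT6, IWS1, which binds SPT6, had 16.9 FPKM, below the 49.5 FPKM of SUPT6H, and SSRP1, a subunit of FACT, had 201 FPKM with no gene TSS. The 6 TFIIS and elongin genes, from TCEA2 at 12.2 FPKM to ELOB, all had a gene TSS (74.1% of genes with an FPKM of at least 1), with a uaTSS at 4 (53.1%) and a daTSS at 3 (28.4%). Of further kinases of the polymerase tail, only CDK13 (14.7 FPKM) and CDK12 (15.8 FPKM) were in the wider list, and both were below CDK9 (41.9 FPKM). Their cyclin CCNK, at 52.4 FPKM, was above CCNT1 and CCNT2. CDK12 and CDK13 thus had less transcript per length than their cyclin, whereas CDK9 had more than its cyclins together. The locus of CCNK in the table is shared with 1 other gene.

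**Figure D4:**
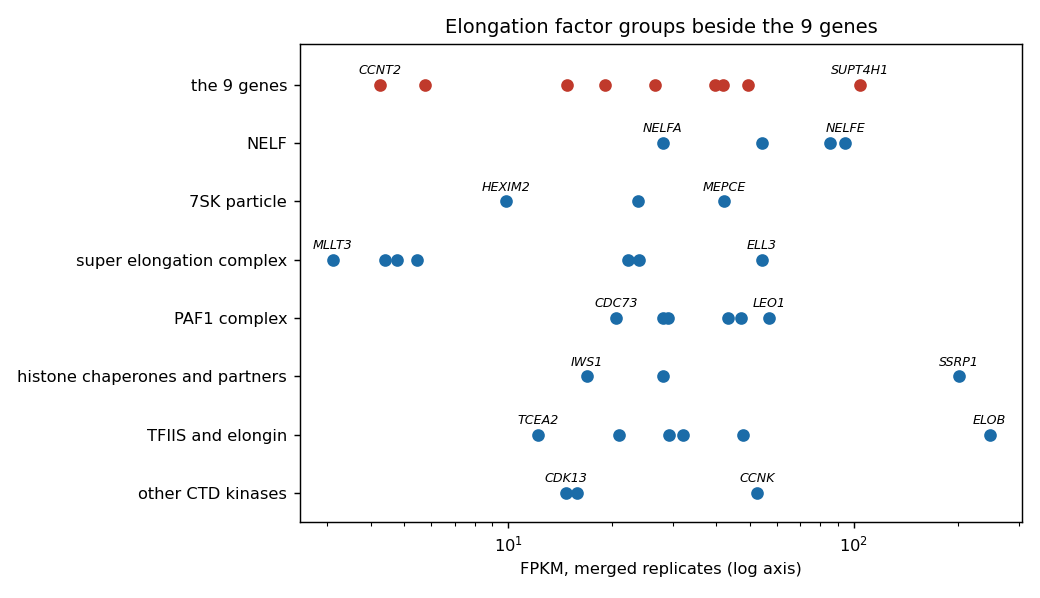
FPKM over merged replicates on a log axis for the 9 genes and the 32 genes of the wider list, by complex. The 9 run from 4.26 to 104 FPKM and the wider list from 3.11 FPKM (MLLT3) to 247 FPKM (ELOB).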

How the data were processed

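Start-seq replicate 1 and RNA-seq of 1 growth condition were analysed. The labels list 2 Start-seq and 3 RNA-seq libraries among 7 samples, of which the MNase-seq and FAIRE-seq samples and the second Start-seq replicate were not analysed here. The authors called TSSs from 5' ends of Start-seq reads aligned to hg19, and deposited single positions with a score of 0 at every call, so no read counts or depth are known. The deposited FPKM values were estimated by the authors with Cufflinks 2.2.1 over merged replicates, after Bowtie and TopHat2 (2.0.4) alignment, cutadapt trimming and Picard duplicate removal (submitters' processing notes and methods). There were 0 unused columns of per-sample values.

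The 9 genes, the wider list and the markers were chosen with earlier results of these data known. One further elongation gene was left out of the wider list and is not reported here. The text names all 9 genes, paralogs and partners, the highest or lowest gene of each group of the wider list, and neighbours within 1000 nt. RNF43, DYNLL2 and RPS16 were named after their positions were seen. A percentile is the share of genes or TSSs below a value, plus 0.5 of those equal to it. Antisense calls were joined by identifier. Wider-list genes without an own TSS were also looked up by annotated starts. Sequences and gene models came from GRCh37 and GENCODE 44 lifted to it, with 23668 of 26175 symbols matched, and RefSeq promoters from GRCh38. GC content used 100 nt, CpG ratios 250 nt on each side, and log2 values a pseudocount of 0.1. Python 3.11.15, numpy 2.4.6, pandas 2.3.3, pysam 0.24.0, samtools 1.23.1 and matplotlib 3.10.9 were used, and distances, windows and motif searches were tested on simulated data.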

Additional observations from a re-analysis of the deposited data

How the results depend on the processing

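No test was run, and a value counts as changed here when it moved at all, since it has no replicate error. Of 52 alternatives, 7 left the value or count as it was and 45 changed it. The median percentile of the 9 genes, 84.7 over all genes, was 78.1 over genes with FPKM above 0, 64.1 over genes with a called gene TSS, and 82.5 without SUPT4H1, the last chosen after seeing the data. With a pseudocount of 1 the median log2 level was 4.79 for the 9 genes and 0.61 for all genes, and it was 3.85 for genes with FPKM of at least 1. Measured from the nearest annotated start, the uaTSSs of SUPT6H, CDK9 and AFF4 lay at 68 nt, 64 nt and 340 nt, and the CDK9 daTSS at 333 nt. Median GC content was 62% in 50 nt and 64.4% in 500 nt, and the median CpG ratio was 0.836 with 500 nt on each side. GGGCGG was found upstream of 4 of 8 gene TSSs in 100 nt. With 1 added to each FPKM, SUPT4H1 to SUPT5H was 2.59, CDK9 to its cyclins 1.76 and AFF4 to ELL 2.34, and 11 of 11 ratios stayed above 1. Rows in the locus were found for 7 of 9 genes when it was not widened, and for 7 by annotated starts. No paired analysis was possible because the FPKM column merges the replicates and the calls come from 1 library, and for the same reason no replicate could be left out. Protein identity between paralogs was not run. Depth is unknown, so the absence of a call does not show the absence of initiation.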
